A study of Mus musculus with 9 samples.

Results

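The genes of MHC class I antigen presentation were followed through mouse ovary after chemotherapy. The set holds 10 genes of the 22544 entries in the deposited table, picked by symbol: the class I heavy chains H2-K1, H2-D1, H2-Q4, H2-M3 and H2-T23, their light chain B2m, the peptide transporter subunits Tap1 and Tap2, and the immunoproteasome subunits Psmb8 and Psmb9. All 10 were in the table, and all 10 reached the expression filter of 1 FPKM in at least 3 libraries, as did 13338 entries in total. The genes were chosen with the group values of these libraries already known, so what follows describes them and does not test them as a set.

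The study has 9 libraries of polyadenylated RNA from ovary. The 3 HBOT libraries come, by the design text, from ovaries given CTX together with hyperbaric oxygen, which is breathing oxygen above atmospheric pressure. The 3 CTX libraries carry a common abbreviation of cyclophosphamide, an alkylating drug that damages ovarian follicles, and the 3 NC libraries name neither treatment and serve as the controls. CTX is shared by the HBOT and CTX groups, and no group received hyperbaric oxygen alone. Strain, age, dose and sampling time are not given in the labels, nor whether replicates came from separate animals, so the spread behind each p-value may be technical.

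Class I molecules show peptides from inside the cell to CD8 T cells and to natural killer cells. The proteasome cuts the proteins, and when interferon induces Psmb8, Psmb9 and Psmb10 these catalytic subunits take the places of the constitutive Psmb5, Psmb6 and Psmb7. The TAP1 and TAP2 proteins pump the peptides into the endoplasmic reticulum, where they are loaded onto a heavy chain paired with beta-2 microglobulin, the product of B2m. H2-K1 and H2-D1 encode the highly polymorphic classical heavy chains. The less variable H2-Q4, H2-M3 and H2-T23 encode nonclassical ones, of which H2-T23 (Qa-1) binds leader peptides of other class I chains and is read by NKG2A receptors, and H2-M3 presents peptides that begin with formyl-methionine. Almost every nucleated cell makes class I molecules, and NLRC5 and IRF1 drive their transcription.

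Promoters are shown because class I genes are known for shared promoter elements, and to let the sequences of heavy chains, light chain, transporter and proteasome genes be compared. RefSeq promoter sequences on GRCm38.p6 matched 9 of the 10 genes, Tap2 being the one not matched. The deposited values were made on GRCm39, so the positions belong to the reference sequences and not to the data. Each line gives the 250 bases before the listed start. The H2-K1 sequence is chr17:34000348-34000597, minus strand, H2-D1 chr17:35262844-35263093, plus strand, H2-Q4 chr17:35379367-35379616, plus strand, H2-T23 chr17:36032702-36032951, minus strand, B2m chr2:122147437-122147686, plus strand, Tap1 chr17:34187306-34187555, plus strand, and Psmb8 chr17:34197945-34198194, plus strand. Capitals mark matches, on either strand, to GAANNGAAA or its longer form with 1 more A in the first run (both forms of the interferon-stimulated response element), to the enhancer A site of NF-kB and to TGACG (the core of a cAMP response element, as in the X2 box). TGACG was marked wherever it lay, at the X2 box or not.
H2-K1: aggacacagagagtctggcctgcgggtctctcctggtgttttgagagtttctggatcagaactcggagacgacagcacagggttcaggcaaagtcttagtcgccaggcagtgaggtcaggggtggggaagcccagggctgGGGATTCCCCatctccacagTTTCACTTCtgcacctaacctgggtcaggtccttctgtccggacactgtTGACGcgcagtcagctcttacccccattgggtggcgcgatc
H2-D1: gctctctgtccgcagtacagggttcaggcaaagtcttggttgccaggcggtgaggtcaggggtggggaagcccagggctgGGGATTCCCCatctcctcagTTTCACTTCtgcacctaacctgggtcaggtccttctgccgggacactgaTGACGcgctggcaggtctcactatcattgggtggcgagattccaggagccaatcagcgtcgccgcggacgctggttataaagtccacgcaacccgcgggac
H2-Q4: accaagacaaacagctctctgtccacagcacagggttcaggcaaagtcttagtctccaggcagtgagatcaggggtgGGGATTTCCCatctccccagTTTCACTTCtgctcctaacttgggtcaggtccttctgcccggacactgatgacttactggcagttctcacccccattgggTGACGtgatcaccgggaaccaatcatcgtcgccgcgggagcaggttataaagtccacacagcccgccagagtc
H2-T23: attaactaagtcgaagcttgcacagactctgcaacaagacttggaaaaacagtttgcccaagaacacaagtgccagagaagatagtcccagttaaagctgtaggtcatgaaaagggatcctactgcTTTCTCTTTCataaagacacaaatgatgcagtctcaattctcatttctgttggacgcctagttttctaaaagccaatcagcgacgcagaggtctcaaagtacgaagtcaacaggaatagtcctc
B2m: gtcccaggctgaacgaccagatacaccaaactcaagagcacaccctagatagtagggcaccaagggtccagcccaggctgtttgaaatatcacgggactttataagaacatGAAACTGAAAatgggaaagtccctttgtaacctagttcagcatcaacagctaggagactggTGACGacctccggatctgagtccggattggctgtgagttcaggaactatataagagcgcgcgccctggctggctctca
Tap1: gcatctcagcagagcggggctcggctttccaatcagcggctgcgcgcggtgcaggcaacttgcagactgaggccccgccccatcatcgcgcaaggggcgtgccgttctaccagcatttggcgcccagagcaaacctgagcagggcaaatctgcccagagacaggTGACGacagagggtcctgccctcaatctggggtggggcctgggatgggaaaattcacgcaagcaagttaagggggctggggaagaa
Psmb8: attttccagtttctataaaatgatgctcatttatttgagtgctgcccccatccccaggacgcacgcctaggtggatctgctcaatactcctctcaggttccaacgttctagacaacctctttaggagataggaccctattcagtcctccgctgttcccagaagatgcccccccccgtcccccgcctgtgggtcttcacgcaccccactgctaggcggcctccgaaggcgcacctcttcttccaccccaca

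GAANNGAAA lay in the window of 4 of the 9 genes, H2-K1, H2-D1, H2-Q4 and H2-M3, against 7.30% of 27025 genes with a listed promoter. The longer form lay in 2 others, B2m and H2-T23, against 3.46%, and 6 of the 9 held either form, against 10.2%. The NF-kB motif was found in 3 of the 9, H2-K1, H2-D1 and H2-Q4, against 0.300% of all genes. TGACG was found in 7 of 9, all but H2-T23 and Psmb8, against 19.8%, and the CCAAT box in 8 of 9, all but Psmb8, against 37.5%. Of 12 constitutive proteasome genes with a listed promoter, 1 held GAANNGAAA, 1 the longer form, 0 the NF-kB motif, 7 TGACG and 7 the CCAAT box. Of 11 other class I heavy chains, 4 held GAANNGAAA (H2-Q6, H2-Q7, H2-Q10 and H2-M2), 1 the longer form and 1 the NF-kB motif. TGACG was in 3 of the 11 and the CCAAT box in 8. Related heavy chains share ancestry, so these matches are not independent of each other. The Psmb8 window held none of these motifs, and neither Tap1 nor Psmb9 held either form of the interferon element. Tap1 and Psmb9 lie head to head, on opposite strands, with 226 bases between their listed starts. The Tap1 sequence above therefore also holds the start of Psmb9, and their TGACG and their CCAAT box are each 1 site counted for both. The place of TGACG differed as well. In H2-D1 it began 101 bases before the listed start, ahead of an inverted CCAAT box (ATTGG) at 76. In H2-Q4 it began 73 bases before the listed start, after the inverted CCAAT box at 79. A match is a string of letters and does not show that a factor binds.

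Of the libraries, HBOT replicate 2 stood apart from the others. In it, 1637 tested genes were over 1 log2 unit away from the mean over the rest, against 173 to 347 in each other library, and the ovulatory growth factor Ereg was at 361 FPKM there and under 1 FPKM in every other library. The FPKM summed to between 394046 and 420058 per library. Read depth is unknown, since the table holds no counts. The ovarian markers were present: the oocyte factor Gdf9 was at 76.8 ± 7.49, 67.8 ± 14.3 and 38.4 ± 8.74 FPKM in HBOT, CTX and NC (mean ± SD, n = 3 each), and the granulosa gene Foxl2 at 68.8 ± 16.1, 93.3 ± 14.5 and 71.3 ± 5.20. In whole ovary, a higher level per cell and more cells of a type with high levels cannot be told apart.

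In CTX ovaries the classical heavy chains were at more than double the control level and did not overlap with it. H2-D1 (ENSMUSG00000073411) was at 277, 427 and 367 FPKM in CTX replicates 1 to 3, against 147, 138 and 113 FPKM in NC. The lowest CTX library was above the highest NC library. Their means were 357 ± 75.3 and 133 ± 17.6 FPKM (SD, n = 3 each), a ratio of 2.69, and the difference was 1.41 on the log2(FPKM + 1) scale (SE 0.22). H2-K1 (ENSMUSG00000061232) was at 184, 268 and 354 FPKM in CTX, against 100.1, 128 and 134 FPKM in NC. The 3 CTX libraries again lay above all NC libraries, though they spread widely, at 269 ± 85.2 against 121 ± 18.1 FPKM (log2 difference 1.11, SE 0.24).

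The nonclassical heavy chains did not behave alike. H2-Q4 (ENSMUSG00000035929) was at 46.8, 65.8 and 49.9 FPKM in CTX, against 17.5, 15.4 and 19.3 FPKM in NC. This was the widest gap among the 10 genes, 54.2 ± 10.2 against 17.4 ± 1.92 FPKM, a ratio of 3.11 (log2 difference 1.57, SE 0.29). H2-M3 (ENSMUSG00000016206) was at 14.5, 13.7 and 13.1 FPKM in CTX, against 9.76, 7.41 and 9.40 FPKM in NC, with no overlap and a log2 difference of 0.59 (SE 0.25). H2-T23 (ENSMUSG00000067212) was at 9.40, 8.75 and 9.01 FPKM in CTX, against 7.69, 6.78 and 10.6 FPKM in NC. Those ranges overlapped, and the difference of 0.13 (SE 0.35) was smaller than its error.

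B2m (ENSMUSG00000060802), the light chain of every class I molecule, had the highest level of the 10 genes. It was at 489, 755 and 721 FPKM in CTX, against 298, 239 and 275 FPKM in NC (655 ± 145 against 271 ± 29.4, log2 difference 1.25, SE 0.26). All CTX libraries were above all NC libraries. The 5 heavy chains summed to 532, 783 and 793 FPKM in CTX, against 282, 295 and 287 FPKM in NC. Heavy and light chain kept a similar ratio: the sum of the 5 heavy chains over B2m was 1.07 ± 0.0327 in CTX and 1.08 ± 0.146 in NC.

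**Figure D1:**
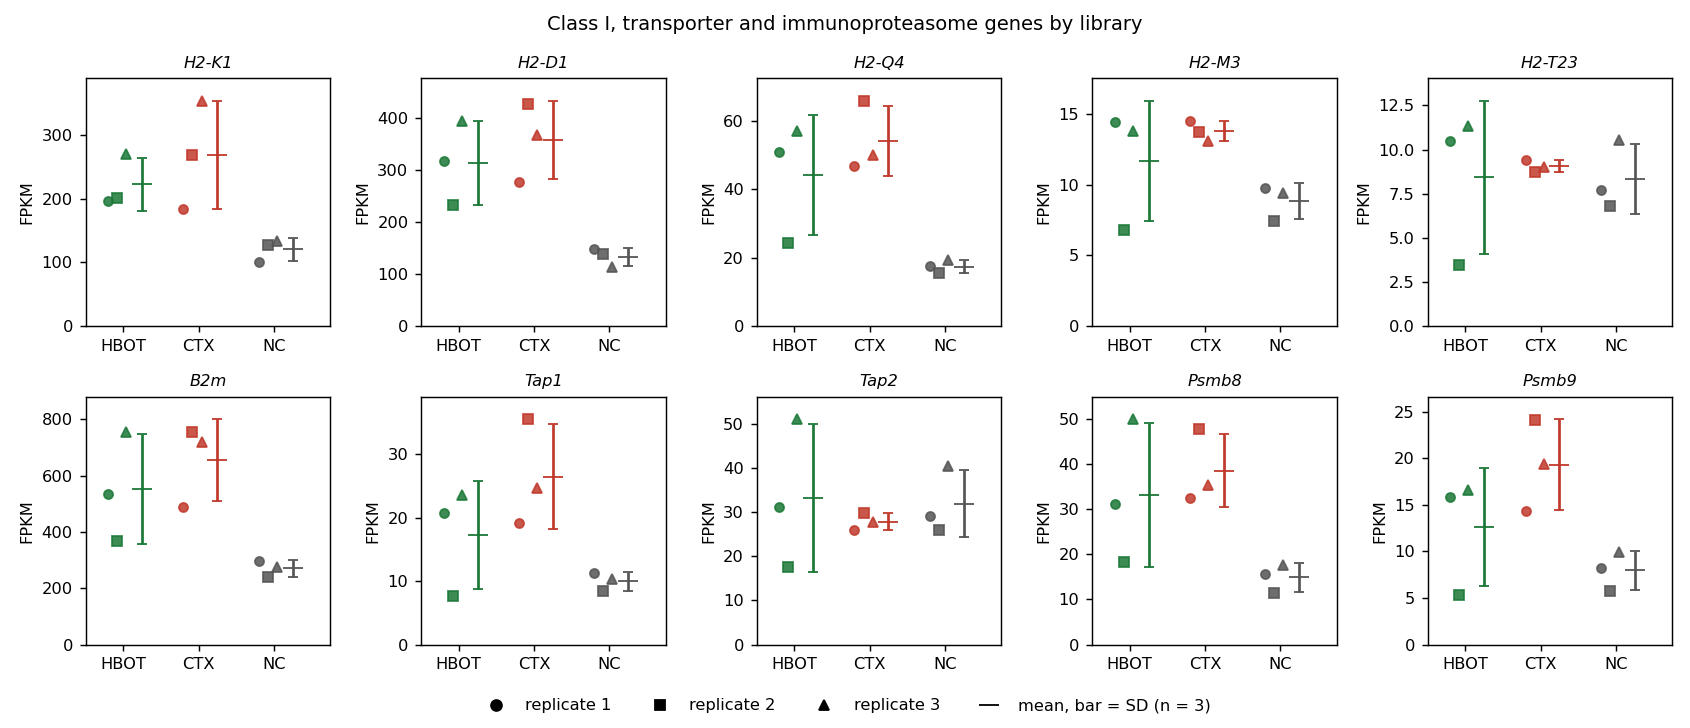
FPKM of each of the 10 genes in each library, with HBOT, CTX and NC from left to right. Each symbol is a replicate and the line with a bar is the mean with the SD over 3 libraries. CTX lies wholly above NC for 8 of the 10 genes (13.2% of all tested genes) and overlaps it for H2-T23 and Tap2. HBOT replicate 2 (square) is the lowest of all 9 libraries for 5 genes (44.1% of all tested genes).

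The 2 transporter subunits parted. Tap1 (ENSMUSG00000037321) was at 19.2, 35.5 and 24.7 FPKM in CTX, against 11.3, 8.37 and 10.4 FPKM in NC, without overlap (log2 difference 1.28, SE 0.38). Tap2 (ENSMUSG00000024339), its obligate partner, was at 26.0, 29.8 and 27.8 FPKM in CTX, against 29.2, 25.9 and 40.5 FPKM in NC. The CTX values lay inside the NC range, and the difference was -0.16 (SE 0.33). Tap1 over Tap2, a ratio of FPKM within a library, was 0.739, 1.19 and 0.889 in CTX, against 0.387, 0.323 and 0.257 in NC, so that the lowest CTX ratio was above the highest NC ratio.

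Both immunoproteasome genes were higher in CTX. Psmb8 (ENSMUSG00000024338), which carries the chymotrypsin-like activity, was at 32.5, 47.8 and 35.3 FPKM in CTX, against 15.6, 11.4 and 17.7 FPKM in NC (log2 difference 1.32, SE 0.33). Psmb9 (ENSMUSG00000096727), which takes the place of the caspase-like subunit, was at 14.4, 24.1 and 19.4 FPKM in CTX, against 8.18, 5.73 and 9.97 FPKM in NC (log2 difference 1.18, SE 0.39). Neither overlapped between the groups. Psmb9 followed its head-to-head neighbour Tap1 closely, with Psmb9 over Tap1 at 0.738 ± 0.0541 in CTX and 0.789 ± 0.149 in NC.

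The constitutive partners of these subunits differed by less. Psmb5, which Psmb8 replaces, was at 49.0 ± 5.27 FPKM in CTX and 51.7 ± 2.82 in NC (SD, n = 3 each). Psmb6, which Psmb9 replaces, was at 142 ± 4.24 in CTX and 126 ± 3.15 in NC, without overlap, and Psmb7, the partner of Psmb10, at 92.6 ± 5.25 and 94.1 ± 3.11. Psmb8 over Psmb5 was therefore 0.749, 0.963 and 0.655 in CTX, against 0.284, 0.225 and 0.356 in NC. Psmb9 over Psmb6 was 0.0983, 0.171 and 0.141 in CTX, against 0.0669, 0.0454 and 0.0775 in NC. For neither ratio did the groups overlap. Psmb9 stayed the minor form at the RNA level in every library, whereas Psmb8 over Psmb5 reached 0.963 in CTX replicate 2 and 1.05 in HBOT replicate 3.

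**Figure D2:**
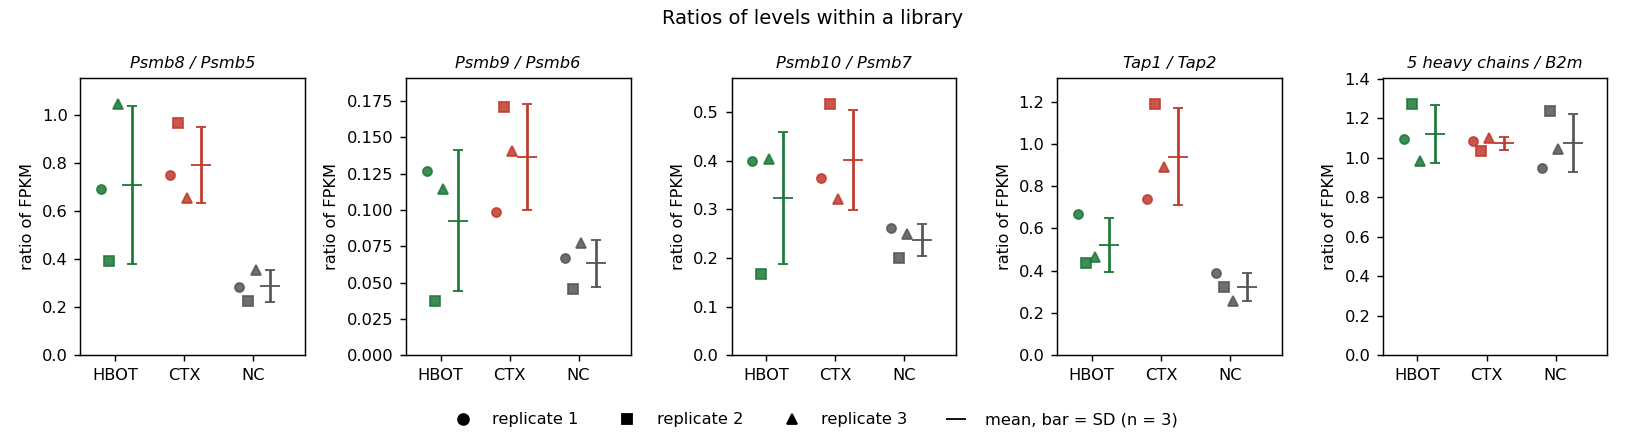
Ratios of FPKM within each library for the 3 inducible over constitutive proteasome pairs, for Tap1 over Tap2 and for the 5 heavy chains over B2m, with symbols, means and SD as for the plot of levels. The first 4 ratios are higher in CTX than in NC, and the heavy chain to B2m ratio is 1.07 in CTX and 1.08 in NC.

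In the limma fit over all 13338 genes, 0 genes (0%) had an adjusted p under 0.05 in CTX against NC, so 0 of the 10 did; the smallest adjusted p among the 10 was 0.172, for H2-D1. At an unadjusted p under 0.05 and higher in CTX stood 8 of the 10 genes, all but H2-T23 and Tap2, against 5.24% of all tested genes. The same 8 had CTX libraries wholly above the NC libraries, against 13.2% of all tested genes. Since these genes were picked with this contrast in view, the shares describe the choice. The median log2 difference over the 10 was 1.22, against 0.05 over all tested genes. Without HBOT replicate 2, whose spread enters the shared error, H2-Q4 was 1 of 8 genes called among all 13338 (adjusted p = 0.029 by limma, 0.0046 to 0.650 over 19 alternatives).

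In HBOT ovaries 5 of the 10 genes lay wholly above NC. H2-D1 was at 316, 231.5 and 393 FPKM in HBOT replicates 1 to 3, all above the NC libraries (log2 difference 1.21, SE 0.22). B2m was at 536, 366 and 756 FPKM in HBOT, against 239 to 298 FPKM in NC (0.97, SE 0.26). H2-K1 was at 197, 201 and 271 FPKM in HBOT, against at most 134 FPKM in NC (0.88, SE 0.24). H2-Q4 was at 50.9, 24.2 and 57.1 FPKM in HBOT, with even the lowest above the 19.3 FPKM of the highest NC library (1.21, SE 0.29). Psmb8 was at 31.2, 18.3 and 49.9 FPKM in HBOT, against at most 17.7 FPKM in NC (1.01, SE 0.33).

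The share of all tested genes with HBOT wholly above NC was 10.9%. The HBOT libraries of the other 5 overlapped the NC libraries. Tap1 was at 20.8, 7.61 and 23.6 FPKM in HBOT (log2 difference from NC 0.60, SE 0.38), and Psmb9 at 15.9, 5.28 and 16.6 FPKM (0.49, SE 0.39). For both, replicates 1 and 3 were above all NC libraries and replicate 2 was below them. H2-M3 was at 14.5, 6.78 and 13.8 FPKM (0.31, SE 0.25), H2-T23 at 10.5, 3.46 and 11.3 FPKM (-0.10, SE 0.35) and Tap2 at 31.2, 17.5 and 51.0 FPKM (-0.04, SE 0.33). Without HBOT replicate 2, 8 of the 10 genes lay wholly above NC, against 23.6% of all tested genes. In HBOT against NC 0% of the tested genes passed an adjusted p of 0.05 by limma, and the smallest among the 10 was 0.235; at an unadjusted p under 0.05 and higher in HBOT stood those same 5 genes, against 6.22% of all.

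Between HBOT and CTX no member separated. All 10 overlapped, where 3.76% of all tested genes lay wholly higher in HBOT and 6.44% wholly lower, and 0% passed an adjusted p of 0.05 by limma. Among the 10, 0 had an unadjusted p under 0.05, against 6.09% of all tested genes, and the smallest adjusted p was 0.710. The estimate was above 0 for 1 of the 10 genes, against 38.4% of all tested genes. It was below 0 for 9, from -0.20 for H2-D1 to -0.69 for Psmb9 (SE 0.22 and 0.39), and 0.12 (SE 0.33) for Tap2. Both contrasts of HBOT and CTX with NC use the same NC libraries, and both contrasts with CTX use the same CTX libraries, so the 3 sets of values are not independent.

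The estimates against CTX depended on single HBOT libraries. Each of the 10 genes was lower in HBOT replicate 2 than in the mean of HBOT replicates 1 and 3. The median difference was -1.10 log2 units, against -0.21 for all tested genes, with -0.20 for H2-K1 and -1.46 for Psmb9 at the ends. HBOT replicate 2 was the lowest of the 9 libraries for 5 of the 10 genes. That share is close to the 44.1% of all tested genes for which it was lowest. Without it the HBOT against CTX difference was 0.0034 for H2-D1, 0.0094 for H2-Q4 and 0.05 for Psmb8, and -0.20 for Tap1, -0.21 for Psmb9 and -0.02 for B2m. Tap2 then stood at 0.50 and, with H2-T23, lay wholly above CTX, 2 of 10 genes against 9.17% of all tested. Leaving out HBOT replicate 3 moved the estimates the other way, to -0.54 for B2m, -0.65 for Psmb8, -0.38 for H2-D1 and -0.24 for Tap2. Without CTX replicate 1 instead, Tap1 and Psmb9 lay wholly below CTX, 2 of 10 against 13.9%.

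**Figure D3:**
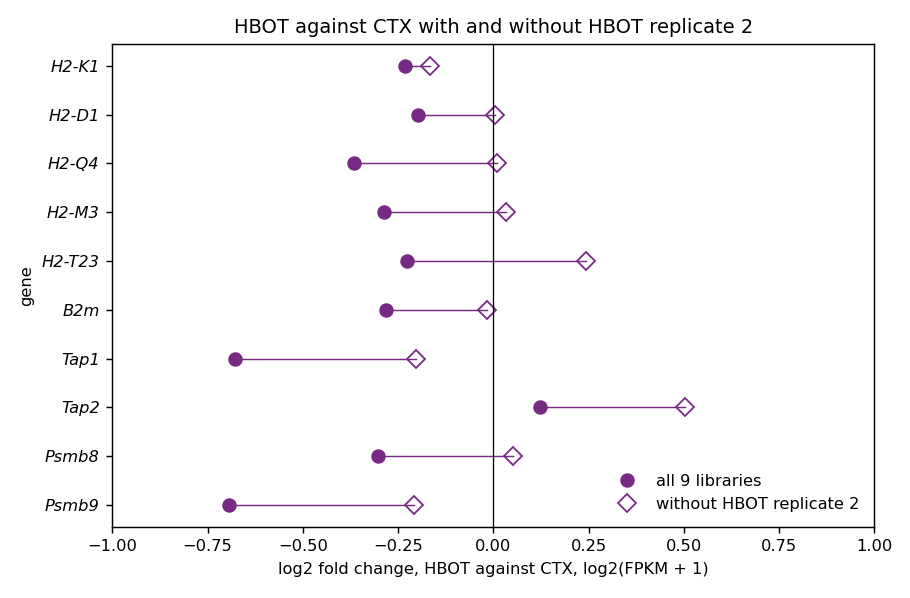
Log2 difference of HBOT against CTX for each of the 10 genes, on the log2(FPKM + 1) scale, with all 9 libraries (filled circles) and without HBOT replicate 2 (open diamonds). The open diamonds lie to the right of the circles for all 10 genes, near 0 for H2-D1, H2-Q4 and B2m.

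Of 18 further class I heavy chain symbols listed, 15 were in the table and 7 passed the filter, and 0 of the 7 passed an adjusted p of 0.05 in CTX against NC. The widest gaps were those of H2-Q1, H2-Q6 and H2-Q7. H2-Q7 was at 6.44, 8.51 and 6.89 FPKM in CTX, against 1.31, 1.59 and 2.28 FPKM in NC (log2 difference 1.61, SE 0.35). H2-Q1 stood at 11.1 ± 0.552 FPKM in CTX and 3.72 ± 0.976 in NC (1.38, SE 0.34), and H2-Q6 at 7.73 ± 2.81 and 1.86 ± 0.468 (1.57, SE 0.39). The CTX libraries lay wholly above NC for these 3 and for H2-T22 (6.69 ± 1.24 against 4.74 ± 0.277 FPKM, 0.41, SE 0.23). The same held for 13.2% of all tested genes. H2-T10 (0.28, SE 0.32), H2-T24 (-0.05, SE 0.25) and H2-M5 (-0.40, SE 0.40) overlapped between CTX and NC. In HBOT, H2-Q7 was at 5.27 ± 2.94, H2-Q6 at 6.03 ± 3.27 and H2-Q1 at 8.41 ± 4.47 FPKM, each with HBOT replicate 2 lowest of the 3. H2-M5 was at 0.474, 0.160 and 0.708 FPKM in HBOT, wholly below its NC libraries of 3.64, 2.52 and 1.21 FPKM (-1.21, SE 0.40).

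These sequences are close to one another, so how reads were split between them is uncertain. In GENCODE M21 the longest open reading frame of H2-K1 was 91.5% identical to that of H2-D1, H2-Q6 95.4% to H2-Q7 and H2-T10 96.9% to H2-T22. Of all 50-base windows of the H2-D1 frame, 23.5% occurred unchanged in another of 12 class I frames, against 12.8% for H2-K1, 13.6% for H2-Q4 and 0.0% for H2-M3. The treatment of reads that fit several genes was not stated in the labels.

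The rest of the loading machinery differed little between CTX and NC. Of 7 loading and trimming genes, all tested, 0 passed, with a median log2 difference of 0.10. Tapbp (tapasin), which bridges TAP to the heavy chain, was at 58.1 ± 15.4 FPKM in CTX and 54.2 ± 6.48 in NC (0.07, SE 0.29), and its relative Tapbpl at 7.17 ± 1.52 and 5.83 ± 0.710 (0.25, SE 0.28). The chaperones Calr (0.27, SE 0.13), Canx (0.10, SE 0.09) and Pdia3 (0.0041, SE 0.12) overlapped between the groups. The trimming peptidase Erap1 stood at 12.03 ± 0.463 FPKM in CTX and 10.4 ± 0.916 in NC (0.20, SE 0.14), just above it in every library, while Lnpep, an endosomal aminopeptidase, stood at 9.38 ± 0.412 and 12.1 ± 0.581 (-0.34, SE 0.12), below it in every library.

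Among the inducible proteasome genes outside the 10, Psmb10 was at 31.6, 48.3 and 31.3 FPKM in CTX, against 24.3, 18.4 and 24.4 FPKM in NC (log2 difference 0.69, SE 0.31). The activator genes Psme1 (PA28 alpha, 0.32, SE 0.16) and Psme2 (PA28 beta, 0.40, SE 0.18) had smaller estimates, and the assembly factor Pomp was level (-0.0007, SE 0.13). None of these 4 passed. Of 15 constitutive proteasome genes 0 passed, and their median was 0.06, against 1.22 for the 10 genes of this set. The class I-like genes, which are built on the same fold, overlapped between CTX and NC. Cd1d1 was at 0.24 (SE 0.25), Hfe at 0.35 (SE 0.23), Mr1 at -0.04 (SE 0.27) and Fcgrt, the IgG receptor, at -0.16 (SE 0.31).

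**Figure D4:**
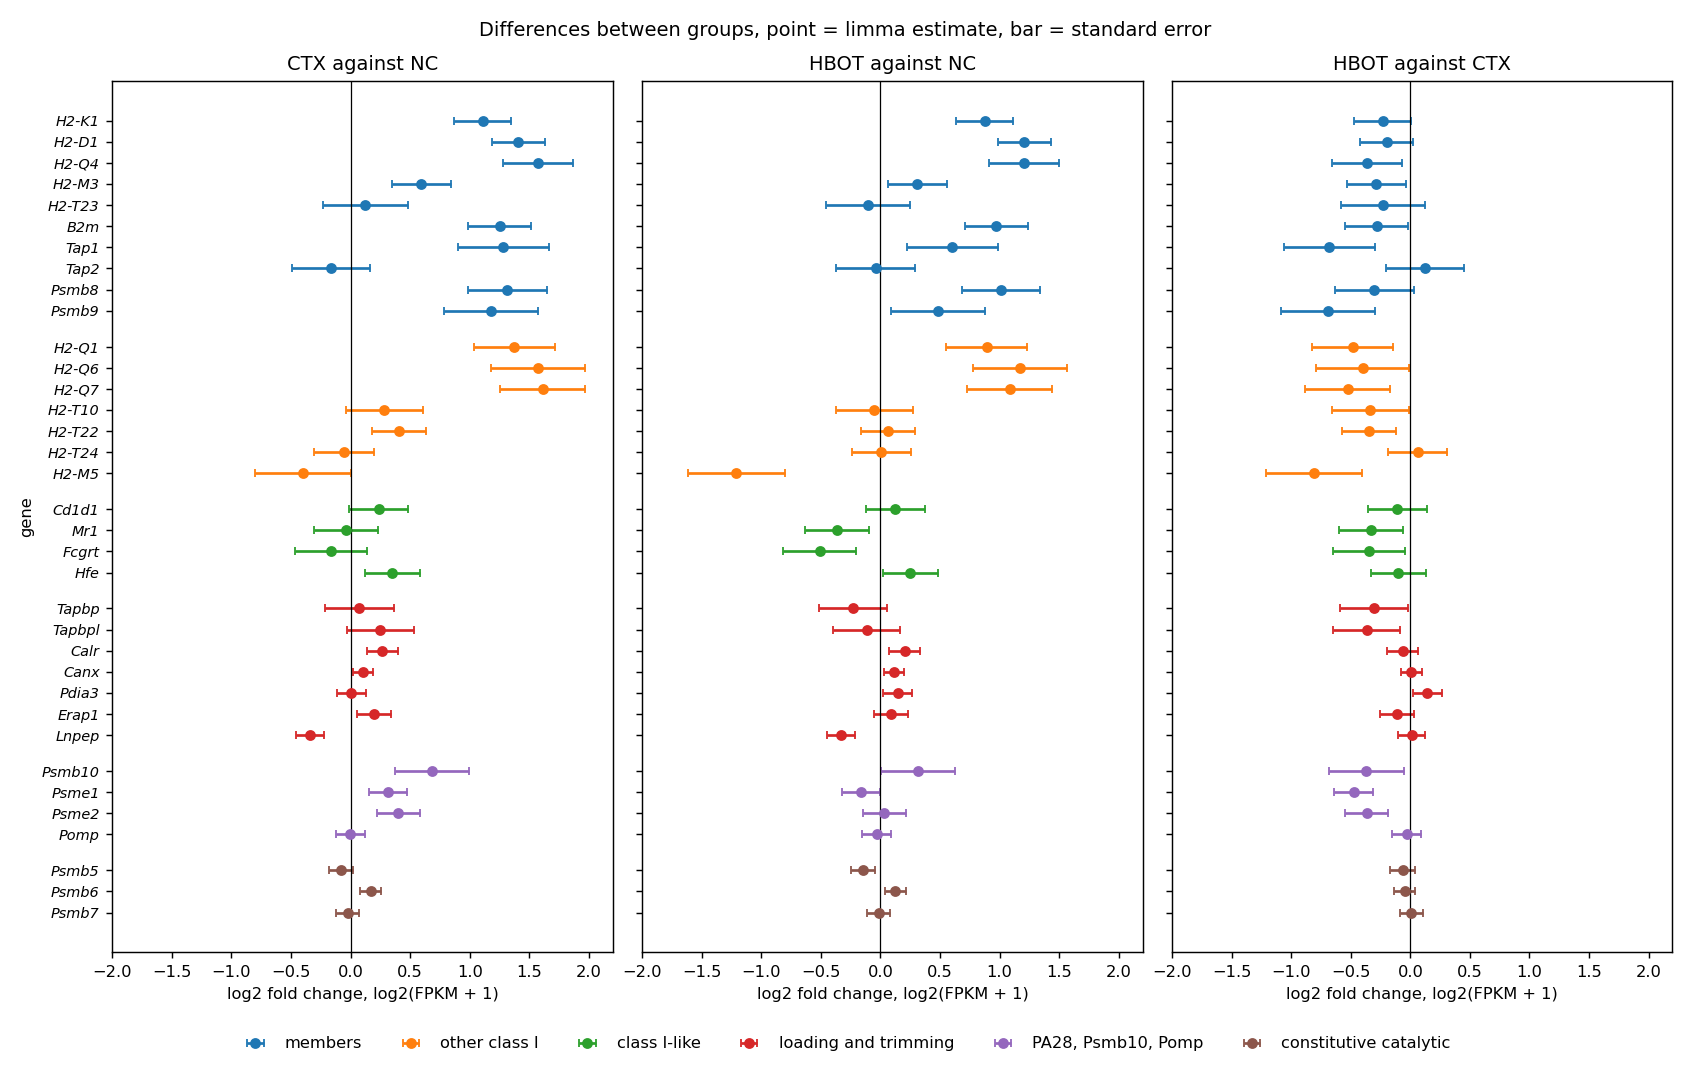
Log2 differences on the log2(FPKM + 1) scale for the 10 genes and the related heavy chains, loading factors and proteasome subunits, for CTX against NC, HBOT against NC and HBOT against CTX from left to right. Points are limma estimates and bars their standard errors; in CTX against NC the largest estimates of the plotted genes belong to H2-Q7, H2-Q6 and H2-Q4.

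Among regulators, the class I transactivator was the one with the widest gap. Nlrc5 was at 3.62, 7.93 and 6.55 FPKM in CTX, against 1.56, 0.956 and 1.77 FPKM in NC, and at 3.65, 2.46 and 4.93 FPKM in HBOT. All CTX and all HBOT libraries were above all NC libraries, with a log2 difference of 1.50 (SE 0.29, adjusted p = 0.246 by limma) for CTX and 0.93 (SE 0.29, adjusted p = 0.328) for HBOT. Of 26 regulators listed, 24 were tested and 0 passed, and the median for CTX against NC was 0.10. Irf1, the interferon-induced factor that binds class I promoters, was at 41.3 ± 12.3 FPKM in CTX and 21.85 ± 2.70 in NC (0.86, SE 0.23). Stat2 was at 31.9 ± 5.93 FPKM in CTX and 19.8 ± 1.72 in NC (0.65, SE 0.16) and Irf8 at 12.4 ± 2.80 in CTX and 6.31 ± 0.975 in NC (0.87, SE 0.33), each without overlap. Irf9 overlapped (0.50, SE 0.17).

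Among the interferon receptors, Ifngr1 stood at -0.0037 (SE 0.14), Ifngr2 at -0.10 (SE 0.21), Ifnar1 at -0.16 (SE 0.12), and Ifnar2 at -0.27 (SE 0.13) in CTX against NC. Irf2 stood at -0.01 (SE 0.10) and Rfx5, a subunit of the complex on the X1 box, at 0.03 (SE 0.24). Its partner Rfxap (0.14, SE 0.11) and the CCAAT-binding subunits Nfya (0.32, SE 0.13) and Nfyb (0.22, SE 0.14) lay wholly higher in CTX. Nfya also lay wholly higher in HBOT than in NC (0.44, SE 0.13). Rfxank (0.23, SE 0.24), a further partner of Rfx5, and Nfyc (0.06, SE 0.15), a further CCAAT-binding subunit, overlapped between CTX and NC. Ifnb1 was listed at 0 in all 9 libraries. Ifng did not pass the filter, at 0.175 FPKM or less in every library and listed at 0 in all NC libraries.

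**Figure D5:**
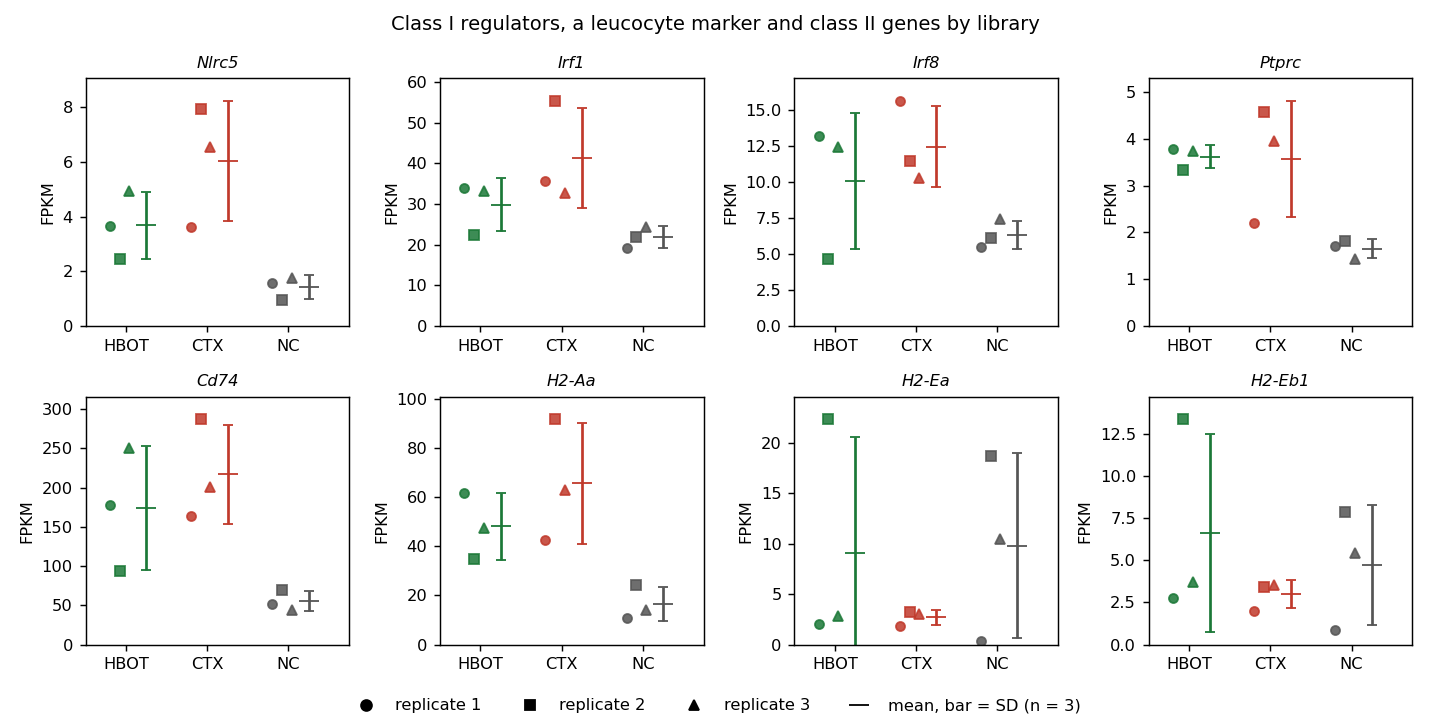
FPKM by library of the regulators Nlrc5, Irf1 and Irf8, the leucocyte gene Ptprc and 4 class II genes, with symbols, means and SD as for the plot of levels. Nlrc5, Ptprc and Cd74 lie higher in all CTX and HBOT libraries than in NC, while H2-Ea and H2-Eb1 are high in HBOT replicate 2 and NC replicates 2 and 3.

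Most immune cell markers had positive estimates in CTX against NC, and 0 passed an adjusted p of 0.05 in any list. The 5 general leucocyte genes summed to 32.1 to 61.7 FPKM in HBOT, 37.0 to 58.4 in CTX and 25.8 to 39.1 in NC, and Ptprc (CD45) alone stood at 3.62 ± 0.251, 3.57 ± 1.23 and 1.65 ± 0.1995. All 5 had a positive estimate in CTX against NC, with a median of 0.72, and 7 of 8 macrophage genes did, with a median of 0.50, Cd68 (-0.11) and Mrc1 (0.0014) being the lowest. Macrophage genes summed to 226 to 435 FPKM in HBOT, 209.7 to 331 in CTX and 158 to 228 in NC. T and NK cell genes summed to 8.27 to 13.6 FPKM in HBOT, 7.42 to 18.7 in CTX and 3.54 to 4.72 in NC. The 5 of 12 that passed the filter had a median of 0.79. Each of the 5 was under 1 FPKM in every NC library. Passing the filter only through CTX and HBOT libraries favours a positive estimate, so this median is no separate sign of a difference. B cell genes summed to at most 2.70 FPKM in any library and 0 of 4 passed. The level of B2m exceeded that of Ptprc 110.1 to 202 times in HBOT, 165 to 223 times in CTX and 132 to 193 times in NC, ranges that overlap. Neutrophil genes summed to 13.1 to 37.5 FPKM in HBOT, 7.02 to 33.9 in CTX and 0.792 to 1.87 in NC. Their median was 1.60 over 4 tested genes, and Ly6g was listed at 0 in CTX replicates 1 and 2 and in all NC libraries. The 4 tested genes too were under 1 FPKM in every NC library, so the same limit holds. Of 12 genes listed as receptors of class I or relatives of such receptors, 5 were tested, with a median of 0.66. Wholly higher in CTX lay 4 of them, against 13.2% of all tested genes. Klrd1, Klrk1 and Klra8 among these were under 1 FPKM in every NC library, with the same limit. Endothelial genes, another source of class I, summed to 64.4 to 75.1 FPKM in HBOT, 62.2 to 72.8 in CTX and 67.4 to 76.2 in NC. Other tissue markers differed too: erythroid genes summed to 317 to 735 FPKM in HBOT, 387 to 816.5 in CTX and 62.8 to 207 in NC, and stromal genes to 359.8 to 548.5, 363 to 468 and 469 to 713 FPKM in HBOT, CTX and NC. Oocyte genes summed to 267 to 305 FPKM in HBOT, 178.5 to 279.8 in CTX and 115.5 to 165 in NC. The medians in CTX against NC were 2.30 over 5 erythroid, -0.49 over 5 stromal, 0.67 over 7 oocyte, -0.07 over 6 endothelial, 0.46 over 6 granulosa and 0.18 over 6 surface epithelial genes. The 6 theca and luteal genes had a median of -0.76, with 4 estimates below 0 and 2 above. Among them Akr1c18, which breaks down progesterone in the regressing corpus luteum, was at 289, 125 and 153 FPKM in CTX, against 2509, 2464 and 2127 FPKM in NC (-3.73, SE 0.82), and at 194, 418 and 2848 FPKM in HBOT. CTX lay wholly below NC for Akr1c18 and for the prostaglandin receptor Ptgfr (-1.74, SE 0.62), and HBOT overlapped NC for both. The 2 with estimates above 0 were Lhcgr and Cyp17a1, both overlapping NC. Cyp17a1 was at 511, 12.3 and 300 FPKM in CTX, against 119, 62.75 and 29.0 FPKM in NC. The part of these cells in the class I values was not tested.

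Class II genes, which are made chiefly by professional antigen-presenting cells, were also higher in CTX in most cases. Cd74, the invariant chain, was at 164, 287 and 201 FPKM in CTX, against 51.9, 69.2 and 44.1 FPKM in NC (log2 difference 1.95, SE 0.36), and at 178, 93.2 and 251 FPKM in HBOT. H2-Aa was at 65.8 ± 24.6 FPKM in CTX and 16.4 ± 6.87 in NC (1.95, SE 0.35), and the transactivator Ciita at 2.60 ± 1.18 and 0.577 ± 0.0491 (1.14, SE 0.29). Of 9 tested class II genes 6 lay wholly above NC in CTX, against 13.2% of all tested genes. The median of the 9 was 1.14, and 0 passed. In HBOT 5 of the 9 lay wholly above NC, against 10.9% of all tested genes. Ciita was under 1 FPKM in every NC library and met the filter only through CTX and HBOT libraries.

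H2-Ea and H2-Eb1, the pair encoding the I-E molecule, differed widely within the HBOT and NC groups, and no CTX library was among the high ones. H2-Ea was at 2.02, 22.3 and 2.82 FPKM in HBOT, 1.82, 3.25 and 3.02 in CTX and 0.364, 18.7 and 10.4 in NC. H2-Eb1 had the same 3 high libraries, with 13.4 FPKM in HBOT replicate 2 and 7.90 and 5.45 FPKM in NC replicates 2 and 3, against 0.851 to 3.73 FPKM elsewhere. The reference strain C57BL/6J carries the H2-b haplotype, in which H2-Ea is not transcribed, and class I genes too differ between haplotypes. The haplotype of these animals is not given in the labels, and its part in the class I values was not tested. NC replicate 1, which had the lowest H2-Ea, stood at 147 FPKM for H2-D1 and 298 for B2m, the highest of the NC libraries, and at 100.1 FPKM for H2-K1, the lowest of them. These values of 1 library were below every CTX library, and whether haplotype bears on that gap was not tested.

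Across the 9 libraries, the 10 genes were alike to different degrees. Each gene was scaled over the 9 libraries and set against the mean of the 10. The likeness r was 0.970 for Psmb8, 0.967 for Tap1, 0.964 for Psmb9, 0.953 for H2-Q4, 0.944 for B2m and 0.923 for H2-M3. It was 0.863 for H2-D1, 0.782 for H2-K1, 0.664 for H2-T23 and 0.506 for Tap2, each gene being part of the mean it was set against. Of all other named genes the closest were Art2a (r = 0.971), H2-Q7 (0.967) and H2-Q6 (0.967), followed by Siglec1 and Arhgap9 (both 0.954), Calhm6 and Clasrp (both 0.953), Arhgap45 (0.951), Gba2 (0.946) and Znfx1 (0.945). Art2a encodes an ADP-ribosyltransferase of T cells and was low, at 0.963 ± 0.572, 1.38 ± 0.169 and 0.248 ± 0.130 FPKM in HBOT, CTX and NC, and Siglec1, a receptor of macrophages, was at 2.34 ± 0.623, 2.51 ± 0.334 and 1.57 ± 0.176. Without HBOT replicate 2 the r of these 10 genes ran from 0.926 to 0.969. The values share the group differences and the libraries, and they describe the order only.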

How the data were processed

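Polyadenylated RNA of 9 mouse ovary samples was extracted with TRIzol and sequenced from both fragment ends (Illumina), per the labels' protocols, after library construction with the VAHTS mRNA-seq v3 kit. Per the submitters' processing notes, fastp 0.23.4 and the build GRCm39 were used. No source at hand names the aligner, the counter or the annotation. FPKM were deposited by the authors as 1 table with 1 column per library, and all 9 columns were matched to samples by their descriptions. Low FPKM values showed no general step (5 of 814 genes under 0.1 FPKM in CTX replicates 1 and 2 shared the commonest ratio, to 4 decimals), so counts were not recovered and depth is unknown.

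Values were taken as log2(FPKM + 1) without rescaling, for entries with at least 1 FPKM in at least 3 libraries. This scale understates the change of low genes. One model of the 3 groups was fitted with limma 3.58.1 in R 4.3.3 (eBayes with trend, 6 residual degrees of freedom), with Benjamini-Hochberg adjustment of p-values over 13338 genes, with calls at an adjusted p under 0.05. The fit was also run on simulated data with 200 changed genes for CTX against NC. It called 71% of log2 changes of 1 and 87% of log2 changes of 2, with 6 false calls among 13138 unchanged genes. The simulated noise was independent and, for each gene, of equal spread in every library, with no outlying library like HBOT replicate 2. These shares are therefore not the power of the fit on the deposited values. The members and lists were chosen with earlier results of these data known. All listed heavy chain, loading and inducible proteasome genes that passed the filter are named, with a set of regulators of which 1 is not reported here, and other lists are given by counts, medians or summed FPKM. Nfya, Nfyb, Nfyc, Rfxap, Rfxank, Cd68, Mrc1, Akr1c18, Ptgfr, Cyp17a1, Lhcgr, Klrd1, Klrk1 and Klra8 were named after their values were seen. The longer interferon element was searched after the sequences were seen. Promoters and transcripts are from RefSeq (GRCm38.p6) and GENCODE M21. Figures were drawn with matplotlib 3.10.9 in Python 3.11.15.

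Alternatives tried: no filter, a minimum of 5 FPKM, 0.1 as pseudocount, TPM, median-of-ratios and quantile scaling, a fit of the 6 libraries compared, replicate number as a block, library weights, and libraries left out.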

Additional observations from a re-analysis of the deposited data

How the results depend on the processing

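Under the 19 alternatives the CTX against NC difference kept its sign for 9 of the 10 genes, and Tap2 (-0.16) was at 0.01 without NC replicate 3. In HBOT against NC, H2-T23 and Tap2 each changed sign in 4 of 19 alternatives and the other 8 genes in none. In HBOT against CTX, H2-M3 and H2-T23 changed sign in 3 and H2-D1, H2-Q4, Psmb8 and Tap2 in 1 each.

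Calls depended on how the spread was estimated. In CTX against NC, library weights called 7 of the 10 genes (all but H2-M3, H2-T23 and Tap2) and 123 of all genes, and a fit of the 6 libraries alone called 1 (H2-Q4) and 31. Leaving out 1 library called 0 to 1 of the 10 and 0 to 9 of all genes, and leaving out both HBOT replicate 2 and CTX replicate 1 called 3 (B2m, H2-D1 and H2-Q4) and 16. In HBOT against NC, library weights called 4 of the 10 (B2m, H2-D1, H2-Q4 and Psmb8) and 181 of all genes, no filter called 1 of all, and leaving out 1 library called 0 of the 10 and 0 to 3 of all. In HBOT against CTX, 0 of the 10 were called under any of the 19, with 1 of all genes called with no filter, 5 with library weights, 2 without both libraries and 0 to 1 with 1 library left out. The cause was not tested.

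Counts of the 10 genes whose groups do not overlap were redone without the doubted libraries after the data had been seen. Without HBOT replicate 2 they were 8 for HBOT above NC (23.6% of all tested genes) and 2 for HBOT above CTX (9.17%). Without CTX replicate 1 they were 2 for HBOT below CTX (13.9%) and 8 for CTX above NC (17.5%). With the replicate block 0 genes were called in any comparison. Same-numbered libraries did not deviate together (correlations of deviations -0.287 to 0.156 over tested genes), so the numbers were not taken as pairs. With FPKM alone, the precision of low genes such as H2-M5 and Ifng rests on 3 libraries a group.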
